A study of Ovis aries with 2 samples.

Results

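Uterine luminal fluid (ULF) of ewes holds extracellular vesicles with small RNAs, and these included 5 mature miRNAs that are best known from stroma, smooth muscle and blood vessels. These are miR-143, miR-145, miR-199a, miR-214 and miR-221, taken as every entry of the deposited table whose first precursor is named mir-143, mir-145, mir-199a, mir-214, mir-221 or mir-222, whatever its copy number, and they are 5 of 81 mature miRNAs in all. miR-222 had no entry. The study sequenced the small RNA of extracellular vesicles from the ULF of Rambouillet ewes on day 14. One library came from pregnant ewes, which had been mated to an intact ram at estrus, and the other from cyclic ewes, in which day 14 was counted from estrus. Each library was made from RNA pooled from 4 ewes, so there is 1 library per condition and the variation among ewes is unknown. Each difference below is therefore one of 2 libraries, not of the conditions. The table gives read counts by mature miRNA, with 10 as the smallest listed count. Reads that match the reference exactly are 1 sequence, and 14 of the 134 listed counts include such a sequence at 1 to 9 copies, so the minimum of 10 is read here as one on the sum of a miRNA, not on single sequences. On this reading, on which every bound below rests, an unlisted miRNA had 9 copies at most. The pregnant library held 2809 mature miRNA counts of 119605 reads in all, and the cyclic library 7921 of 94735. Unlisted miRNAs add nothing to these counts. With each unlisted entry of the 81 at 9 copies they would be 3052 (pregnant) and 7930 (cyclic). Pregnant shares and pregnant over cyclic ratios relative to them may therefore be somewhat too high.

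miRNAs are short RNAs that pair with messenger RNAs, mainly through bases 2 to 8 (the seed), and lower their translation or stability. In mammals each pair of partners is made from a shared primary transcript, namely miR-143 with miR-145, miR-199a with miR-214 and miR-221 with miR-222. miR-143 and miR-145 are known from smooth muscle, where they support the contractile state of vessel walls and are abundant in the uterine muscle layer. miR-199a and miR-214 are made in mesenchyme and fibroblasts from a transcript that runs opposite to a dynamin gene. miR-221 and miR-222 are made in endothelium and in many dividing cells, and repress a cell cycle inhibitor and the receptor KIT. None of the 5 is confined to these cells, and the cells that released the vesicles were not identified here.

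The 5 reference sequences, as the table gives them for cattle, are shown because the seed of each sets which messages it can pair with. Letters are DNA, 5′ to 3′, with the seed in capitals.
miR-145: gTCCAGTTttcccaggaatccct
miR-143: tGAGATGAagcactgtagctcg
miR-214: aCAGCAGGcacagacaggcagt
miR-199a: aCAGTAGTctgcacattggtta
miR-221: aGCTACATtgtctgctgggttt

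The 5 seeds differed from each other, and none of the other 76 mature miRNAs of the table had any of them, so each member stood alone in its seed group. The cluster partners therefore share a transcript but no seed. miR-145 was 23 bases long and the other members 22. The GC content was lowest in miR-199a, at 40.9%, and highest in miR-214, at 59.1%. The closest other entry, aligned without gaps, matched 10 bases of miR-143, 11 of miR-221 and 12 each of miR-145, miR-214 and miR-199a. RefSeq genes of the sheep (assembly ARS-UI_Ramb_v3.0) were found for 3 of the 5. MIR143 lies within the span of the long non-coding RNA gene LOC114114896 and MIR221 within that of LOC105605445. MIR199A lies within the span of DNM3, which encodes a dynamin, a GTPase of membrane fission.

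miR-145 was the most abundant member in both libraries. It had 52 counts in the pregnant library, 1.85% of the mature miRNA counts (exact Clopper-Pearson 95% interval 1.39 to 2.42%), whereas the cyclic library had 109, 1.38% (1.13 to 1.66%). These counts placed miR-145 at rank 20 of the 54 miRNAs listed in the pregnant library and at rank 28 of the 80 listed in the cyclic library. miR-221 was the only other member listed in both. It had 12 counts in the pregnant library, 0.427% (0.221 to 0.745%), and 26 in the cyclic library, 0.328% (0.215 to 0.481%). For both miRNAs the intervals of the libraries overlapped.

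The other 3 members were listed in the cyclic library only. In the pregnant library each had at most 9 copies, a share of at most 0.320%. In the cyclic library miR-214 had 20 counts, 0.252% (0.154 to 0.390%). miR-143 had 11 counts, 0.139% (0.0693 to 0.248%), and miR-199a had 10, 0.126% (0.0606 to 0.232%). The bound for the pregnant library lies above all 3 cyclic shares, so these values do not tell a lower share from an equal one. Copies of 1 molecule made by PCR cannot be recognised in these reads, so all intervals cover counting error only.

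**Figure D1:**
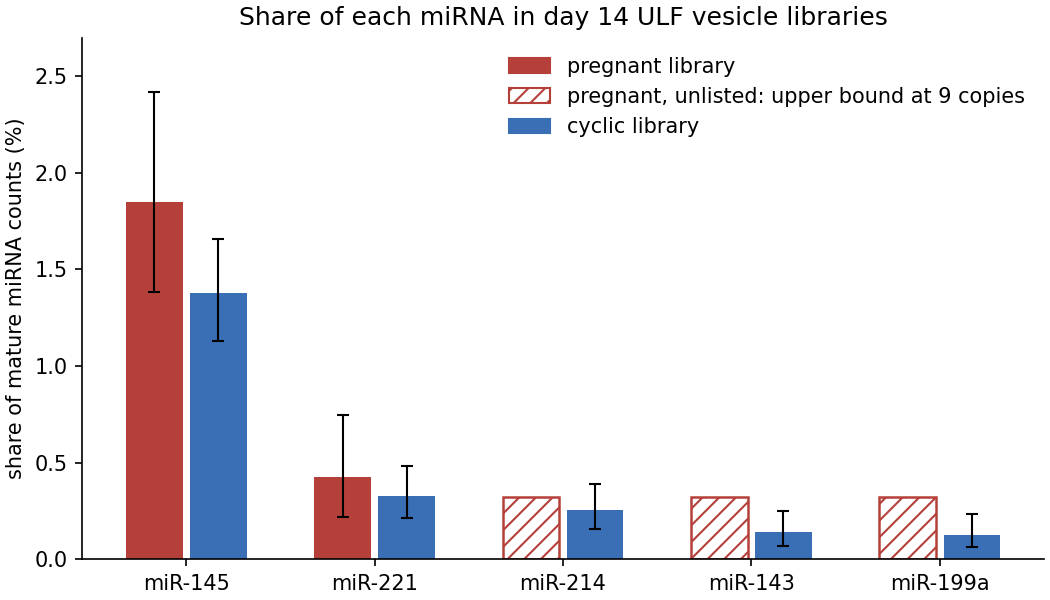
Share of total mature miRNA counts (%) of each member in the pregnant library (red, left) and the cyclic library (blue, right), 1 library each. Error bars are exact 95% intervals of counting error, and hatched bars are upper bounds at 9 copies for unlisted miRNAs. miR-145, at 1.85% and 1.38%, stands above the other members in both libraries, and each hatched bound of 0.320% lies above the cyclic share beside it.

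miR-145 had 4.33 times the counts of miR-221 in the pregnant library (interval 2.28 to 8.92) and 4.19 times in the cyclic library (2.71 to 6.70). The step between these neighbours was therefore clear of counting error in both libraries, and relative to miR-221 the level of miR-145 differed by a ratio of 1.03 between the pregnant and the cyclic library (0.460 to 2.43). In the cyclic library miR-214, miR-143 and miR-199a followed, and here neighbours could not be told apart. miR-221 had 1.30 times the counts of miR-214 (0.698 to 2.46), miR-214 had 1.82 times those of miR-143 (0.830 to 4.20), and miR-143 had 1.10 times those of miR-199a (0.424 to 2.89). Levels of different miRNAs are given as reads, and how efficiently each was ligated and copied was not measured.

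Relative to total mature miRNA counts, miR-145 had a pregnant over cyclic ratio of 1.35 (exact conditional 95% interval 0.948 to 1.89). miR-221 had a ratio of 1.30 (0.598 to 2.67). For the 3 unlisted members only an upper bound can be had, at 9 copies. It was 1.27 for miR-214 (0.509 to 2.92), 2.31 for miR-143 (0.845 to 6.12) and 2.54 for miR-199a (0.912 to 6.95), so that neither direction could be told for them. A miRNA was called higher or lower where its ratio was at least 2-fold and its interval excluded 1. None of the 5 members was called, against 8.64% of all 81 mature miRNAs, of which 6.17% were higher and 2.47% lower. Fewer vesicles from one cell type and less of a miRNA per vesicle cannot be told apart in such libraries.

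What this depth could have shown differed among the members. At its 109 cyclic counts, miR-145 would have been called higher with 78 or more pregnant counts and lower with 19 or fewer. miR-221 would have been called higher with 19 or more counts and could not be called lower at any listed or unlisted count. The same held for miR-214, miR-143 and miR-199a, for which 15, 11 and 10 pregnant counts would have met the criteria for higher. At its cyclic share each of the 3 would have had fewer than 10 copies in the pregnant library, 7.09 for miR-214, 3.90 for miR-143 and 3.55 for miR-199a, and miR-221 would have had 9.22, against 12 counted.

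Other miRNAs at these levels were also mostly unlisted in the pregnant library. Of the 22 mature miRNAs with 10 to 20 counts in the cyclic library, 19 were unlisted in the pregnant library, among them all 3 of these members, and only miR-107, miR-92a and miR-99b were listed. Of the 14 with 21 to 40 cyclic counts, 9 were listed, miR-221 among them, and of the 34 with more than 60, including miR-145, all 34 were listed. The listing of the 5 members thus followed their cyclic counts, with the 2 most abundant listed and the 3 least abundant unlisted.

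**Figure D2:**
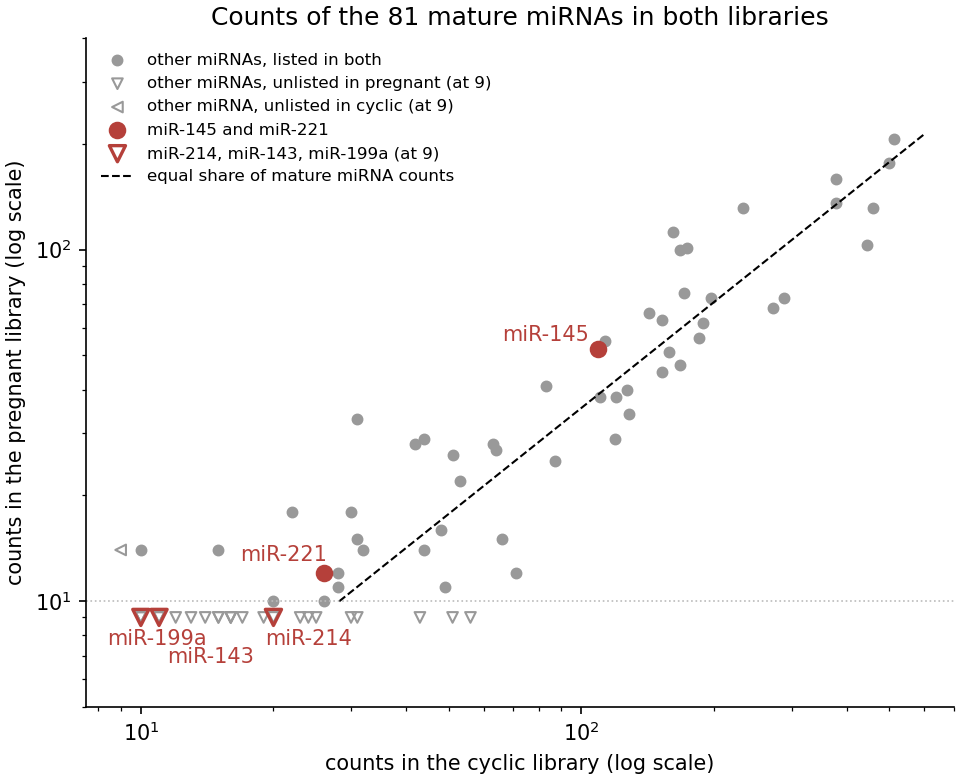
Counts in the pregnant library (vertical) against the cyclic library (horizontal) for the 81 mature miRNAs, both on log scales. Red marks the 5 members, open triangles are unlisted counts drawn at 9 copies, the dotted line is the minimum of 10 and the dashed line an equal share of the mature miRNA counts. miR-145 (52 and 109) and miR-221 (12 and 26) lie a little above the dashed line, and miR-214, miR-143 and miR-199a lie among 19 miRNAs with 10 to 20 cyclic counts that were unlisted in the pregnant library.

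The direction for miR-145 and miR-221 depended on what the counts were divided by. Relative to all reads of the library, miR-145 took 0.0435% of the pregnant and 0.115% of the cyclic library, with a ratio of 0.378 (0.266 to 0.530). miR-221 took 0.0100% and 0.0274%, with a ratio of 0.366 (0.168 to 0.750). At the bound of 9 copies miR-214 had a ratio of at most 0.356 (0.143 to 0.819), so on this scale 3 of the 5 members were lower in the pregnant library. So were 71.6% of all 81 mature miRNAs, since this division moves every log2 ratio by -1.83. miR-143 had a ratio of at most 0.648 (0.237 to 1.72) and miR-199a of at most 0.713 (0.256 to 1.95), which include 1. With edgeR's TMM the ratios of miR-145 and miR-221 were 1.21 and 1.17, and with DESeq2's size factors 1.15 and 1.11, each with an interval that includes 1.

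**Figure D3:**
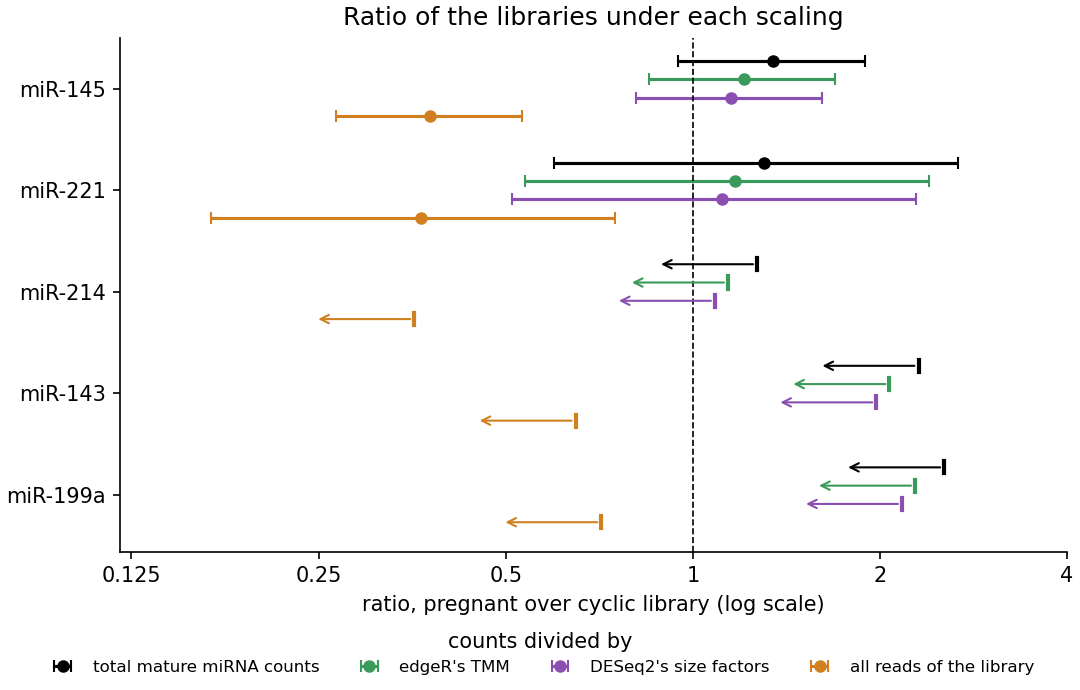
Ratio of the libraries, pregnant over cyclic (log axis), for each member under 4 scalings, with points and exact 95% intervals of counting error for miR-145 and miR-221, and vertical ticks with arrows for the upper bounds of the unlisted miR-214, miR-143 and miR-199a. Relative to all reads (orange), the ratios of miR-145 and miR-221 were 0.378 and 0.366, whereas the other 3 scalings gave 1.11 to 1.35.

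The partners of a cluster can be compared within a library, where no scaling enters. In the pregnant library miR-145 had 52 counts and miR-143 at most 9, so that miR-145 had at least 5.78 times the counts of miR-143 (2.82 to 13.3 at this bound). In the cyclic library this ratio was 9.91 (5.33 to 20.4), and miR-143 took 9.17% of the counts of the pair (4.67 to 15.8%). The cyclic split would have put 5.25 miR-143 copies beside the 52 of miR-145, which is under the minimum. At the bound, the odds of miR-143 to miR-145 were at most 1.71 times those of the cyclic library (0.587 to 4.86), so no difference in the split was detectable. Reads of miR-145 were thus in excess of those of its partner in both libraries. How efficiently each partner was ligated and copied was not measured.

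In the second pair neither miR-214 nor miR-199a was listed in the pregnant library, so the split could not be compared. In the cyclic library miR-214 had 20 counts and miR-199a 10, and the ratio was 2.0, with an interval that includes 1 (0.894 to 4.78). In the third pair miR-221 was listed in both libraries and miR-222 in neither. With at most 9 copies of miR-222, miR-221 had at least 1.33 times its counts in the pregnant library (0.516 to 3.58) and at least 2.89 times in the cyclic library (1.31 to 7.01). An excess of miR-221 reads over miR-222 reads was therefore clear of counting error in the cyclic library and not in the pregnant library. Whether the libraries differ in it could not be told.

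The members also differed in how their reads matched the reference. No read of miR-145 was an exact match to it, in either library, although 52 and 109 reads were counted, which allows shares of exact matches of up to 5.77% (pregnant) and 2.75% (cyclic). The same held for the 12 and 26 reads of miR-221, the 20 of miR-214 and the 11 of miR-143. Such entries were common, since 41 of the 54 miRNAs listed in the pregnant library and 57 of the 80 in the cyclic library had no exact match. miR-199a, the least abundant member, was the exception, with 7 of its 10 reads exact (34.8 to 93.3%), against 9.80% of all mature miRNA counts of the cyclic library. Whether reads that were not exact differed from the reference in bases or only in their ends was not examined.

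All reads of miR-145, miR-221, miR-214 and miR-143 were assigned to 1 precursor. miR-199a is listed under a pair of cattle precursors, and 2 of its 10 reads were assigned to 1 of them alone. Of the 14 mature miRNAs of the cyclic library with several precursors, 12, miR-199a among them, had a share of such reads of 20% or less. The entry names give no arm for any member. Reads of miR-199a and of its paralog miR-199b, which shares a mature sequence with it in mammals, could not be told apart.

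Taken as a group, the members made up a small share of both libraries. Their counts added up to 64 in the pregnant library, 2.28% of the mature miRNA counts (1.76 to 2.90%), and to 176 in the cyclic library, 2.22% (1.91 to 2.57%). The pregnant sum takes nothing from the 3 unlisted members. With each of them at 9 copies the pregnant share would be 3.24%, above the cyclic interval, so whether the shares were similar could not be told. The median log2 ratio of miR-145 and miR-221 was 0.40, beside 0.22 for the 53 miRNAs listed in both libraries. At 26 cyclic counts the smallest listed pregnant count, 10, already gives a ratio of 1.08, as for miR-660. Being listed thus fixed a ratio above 1 for miR-221, so this median and the position of miR-221 below are no sign of a rise. miR-145 stood at position 17 and miR-221 at position 19 of these 53 when ordered from the highest ratio, an order that no scaling can change.

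miR-145 was also set against single miRNAs of other cells. Its ratio was compared with those of the 52 other miRNAs listed in both libraries, with intervals that are not adjusted for their number. It was above that of 9, below that of 2 (miR-23b and miR-99b), and not distinguishable from that of 41. From how many others a typical miRNA differs was not counted, so these numbers cannot be read as a trait of miR-145. Relative to miR-451, which is made in red cell precursors and had 12 pregnant and 71 cyclic counts, miR-145 was 2.81 times higher in the pregnant library (1.36 to 6.21). Relative to the epithelial miR-200b, with 103 and 445 counts, it was 2.06 times higher (1.36 to 3.10), and relative to miR-200a 1.89 times (1.21 to 2.93). Relative to total mature miRNA counts, miR-451, miR-200b and miR-200a themselves had pregnant over cyclic ratios of 0.477, 0.653 and 0.712. Relative to the other 3 epithelial miRNAs listed in both libraries no difference was detectable, with ratios of 0.849 for miR-200c (0.560 to 1.28), 1.09 for miR-31 (0.692 to 1.70) and 0.936 for miR-205 (0.508 to 1.75). For miR-221 the intervals of all 52 comparisons included 1, at 12 and 26 counts.

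Summed over the list, markers of epithelium were far more abundant than the sum of the members. The 8 listed of 10 epithelial miRNAs had 408 pregnant and 1283 cyclic counts, 14.5% and 16.2% of all mature miRNA counts. Singly, miR-200a, miR-200b, miR-200c and miR-31 had more counts than miR-145 in both libraries. The other listed ones, miR-205, miR-141, miR-34c and miR-429, had fewer than miR-145 in both. For every 100 epithelial counts the pregnant library held 15.7 counts of the members and the cyclic library 13.7, an odds ratio of 1.14 (0.827 to 1.57). Over the 2 members and 5 epithelial miRNAs listed in both libraries the odds ratio was 1.38 (0.988 to 1.92). Neither could be told from 1 at this depth. In the first, unlisted miRNAs added nothing, and no odds ratio was computed with them at 9 copies, so it is not settled at that bound. The second keeps only listed miRNAs, and for miR-221 being listed already meant a ratio above 1, so it is not free of this selection. One of 3 erythroid markers was listed, miR-451, which was lower in the pregnant library, and one of 5 leukocyte markers, miR-223 of neutrophils, with 56 cyclic counts and at most 9 copies in the pregnant library.

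Of 19 other miRNAs of stroma, muscle and vessels, 3 were listed, each in both libraries, and none was called. miR-125b, which is abundant in many mesenchymal cells, had 66 pregnant and 142 cyclic counts, and relative to it miR-145 differed by a ratio of 1.03 (0.644 to 1.63). miR-424, a miRNA of endothelium and other cells, had 15 and 66 counts, and miR-145 was 2.09 times higher relative to it (1.06 to 4.33). miR-99a, often made along with miR-125b, had 11 and 28 counts. The median log2 ratio of the 3 was 0.15, with 2 of 3 ratios above 1, and with edgeR's TMM it was -0.0079, with 1 of 3. The 16 unlisted ones include miR-126 of endothelium and the striated muscle miRNAs miR-1, miR-133a, miR-133b and miR-206, each with at most 9 copies in either library. The part of stromal, muscle or vessel cells in the counts of the 5 members was not tested.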

How the data were processed

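Small RNA of ULF extracellular vesicles was sequenced with the Ion Torrent platform in 1 pregnant and 1 cyclic library, each pooled from 4 ewes. In CLC Genomics Workbench (version not given in the sources used here) the authors retained reads of 15 to 55 bp, matched these to Bos taurus mature miRNAs (miRBase release 19) and grouped reads by mature miRNA. The paper sets its minimum of 10 copies on sequences, and it is read here, from the values, as one on sums. The deposited values are unnormalized read counts, and exact matches and reads of 1 precursor are counted apart. A deposited annotation report of other read numbers per library gave the total reads. Whether these were counted before or after the length limits was not established. No genome build is named for the counts. A fold change column of the authors was not used, and 6 columns of the second table, which belong to a library not mapped to a sample, were not used either.

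Counts were divided by 2809 (pregnant) or 7921 (cyclic) mature miRNA counts. Ratios have exact conditional binomial, odds ratios exact conditional and shares exact Clopper-Pearson 95% intervals. An unlisted miRNA was set at 9 copies in ratios and bounds but added nothing to sums over a list unless stated. The limit for 0 exact matches was 3 counts. With 1 library per condition no p-value was computed. Python 3.11.15, NumPy 2.4.6, pandas 2.3.3, SciPy 1.17.1 and matplotlib 3.10.9 were used, and for other scalings R 4.3.3 with edgeR 4.0.16 and DESeq2 1.42.0. The calls were run on simulated data, with pass criteria set only at a greater depth than that of these libraries. How the calls perform at the depth of these libraries is therefore not shown. Named miRNAs were the 5 members, the listed members of the marker lists, miRNAs sharing a seed and the 2 neighbours on each side in the cyclic order. miR-23b, miR-92a and the unlisted list members were named after their values were seen. The members and lists were chosen with earlier results of these data known.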

Additional observations from a re-analysis of the deposited data

How the results depend on the processing

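Scaling to all reads of the library turned the ratios of miR-145 and miR-221 to 0.378 and 0.366, made miR-214 lower at its bound of 0.356, moved the calls over all miRNAs to 58, against 7, and gave median log2 ratios of -1.43 for the members, -1.68 for other stromal miRNAs, -1.53 for epithelial ones and -2.90 for miR-451. A minimum of 20 counts in either library left 4 calls. With exact matches only, miR-199a took 100% of the 7 counts of its pair with miR-214, whereas the other members had no exact match and gave no value. Pairs with an unlisted partner gave none when left out. Of 45 values under alternatives other than all reads, 43 kept their direction and side of the criteria or lay within the interval of the main value. Some of these could not have come out otherwise. The second table and the sums by miRNA name hold the same counts for every member, and the bounds of unlisted members had no direction to lose. The tally is therefore no measure of how firm the results are. The comparison with epithelial miRNAs listed in both libraries was chosen after seeing the data. No paired analysis was possible because each condition has 1 library. Depth limits the 4 less abundant members most, none of which could have been called lower relative to mature miRNA counts.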

Other observations

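The miRNAs next to each member in the cyclic order differed in their pregnant counts. Around miR-145, with 52 pregnant and 109 cyclic counts, miR-151 had 55 and 113, let-7c 38 and 110, miR-29b 25 and 87 and miR-342 41 and 83. Around miR-221, with 12 and 26, miR-185 had 12 and 28, miR-99a 11 and 28 and miR-660 10 and 26, whereas let-7d had 25 cyclic counts and was unlisted in the pregnant library. Around miR-214, which had 20 cyclic counts, miR-9 had 18 and 22 and miR-107 10 and 20, and miR-101 and miR-429 were unlisted in the pregnant library. Next to miR-143 and miR-199a, miR-128, miR-148b and miR-20a were unlisted in the pregnant library as well, and miR-99b had 14 and 10 counts. Of these neighbours miR-9 and miR-99b met the criteria for higher, with ratios of 2.31 and 3.95. At 10 cyclic counts any listed pregnant count would have met them, so the call of miR-99b is no sign of a rise. At the 22 cyclic counts of miR-9, being listed already meant a ratio above 1, though not a call.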
